A study of Laccaria bicolor with 20 samples.

Results

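The transcriptome of free-living Laccaria bicolor mycelium grown without ammonium salts (−N) was compared directly with that of mycelium grown on reduced glucose (−C), to separate what was particular to the lack of each nutrient from the response common to both. The comparison used the 3 libraries labelled −N and the 3 labelled −C, 6 of the 20 RNA sequencing libraries of the study, and the 3 control libraries served as the reference for each medium. All were of strain S238N, an ectomycorrhizal basidiomycete, which grew in the dark at 25 °C, first for 2 weeks on the control agar (a modified Melin-Norkrans medium, MMN) and then for 1 week on fresh control agar or on an altered medium. The control medium held 0.5% glucose and 1.89 mM diammonium phosphate. All ammonium salts were left out of −N, with the phosphate made up by a potassium salt, and glucose was lowered to 0.02% in −C. Malt extract and casein hydrolysate, which carry organic nitrogen and carbon, stayed in all media, so that −N lacked ammonium but not every nitrogen source and −C lacked most glucose but not every carbon source. The labels call the libraries of a medium biological replicates without saying how the cultures were separated, and p-values measure the spread between these libraries, which may be technical.

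In the forest, ectomycorrhizal fungi take up ammonium, nitrate, amino acids and peptides from soil and receive sugars from the host root. In many ascomycete fungi, genes for the use of secondary nitrogen sources are held down by ammonium and glutamine through GATA factors of the AreA type, and genes for the use of secondary carbon sources are held down by glucose through the repressor CreA. Ammonium enters amino acids through glutamine synthetase and glutamate dehydrogenase, whose carbon skeletons come from the citrate cycle, so that supplies of nitrogen and carbon meet at this step.

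The −N libraries held 12.8 to 18.9 M reads, the −C libraries 17.1 to 27.0 M and the control libraries 14.9 to 17.2 M. On log2 CPM (levels below are in CPM, reads scaled to a library of 1 M after TMM normalisation), a −N and a −C library lay on average 89.0 apart, against 41.8 between −N libraries and 39.9 between −C libraries. The mean distance to the control libraries was 78.9 for −N and 89.1 for −C. A letter i closes the sample codes of all 3 −N libraries, 1 control library and 1 −P library, and of no −C library, and its meaning is not stated in the labels. Within the 6 libraries compared, this mark and the medium cannot be told apart. A term for the mark, estimated from the marked control and −P libraries, was itself called in 0 genes by edgeR, with 817 of 14725 genes under an unadjusted p of 0.05. With that letter term in the fit, 2923 genes were still called between −N and −C, of which 2819 were also called without it, all in the same direction.

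Of 14725 genes tested, 5722 (38.9%) were called between −N and −C by edgeR's quasi-likelihood test at a Benjamini-Hochberg adjusted p under 0.05, the test behind every adjusted p given here. Of these, 2834 (19.2%) were higher in −N and 2888 (19.6%) higher in −C. The 3 libraries of −N did not overlap those of −C in 8344 genes (56.7%). Large differences, found in 381 genes over 4-fold (2.59%), were mostly on the side of −N, as 342 genes (2.32%) were over 4-fold higher in −N and 39 (0.265%) over 4-fold higher in −C. Over 2-fold, the counts were 1095 and 313 (9.56% together). The even split of all calls depended on the scaling, since upper quartile scaling, which moved the median gene by 0.06 on the log2 scale, gave 3416 genes higher in −N and 2300 higher in −C. Over 4-fold, that scaling gave 355 genes higher in −N and 38 higher in −C. With at least 10 reads in each −N, −C and control library, these counts were 119 and 32. In RNA from whole mycelium, a smaller share of a kind of hypha and less RNA per hypha cannot be told apart.

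Each gene was then placed in a class by its calls against the control medium and between the media. Against control, 4673 genes were called in −N (31.7%; 2171 higher, 14.7%, and 2502 lower, 17%) and 5537 in −C (37.6%; 2677 higher, 18.2%, and 2860 lower, 19.4%). These comparisons share the 3 control libraries, and the overlap of their calls was therefore not tested. A change in −N alone that also separated −N from −C was found in 1447 genes (9.83%; 683 higher and 764 lower than control). For −C alone the count was 2138 (14.5%, with 1126 higher and 1012 lower). A change from control in −N or −C alone, here and below, leaves the other media out of account. Both media moved 1413 genes the same way with no call between them (9.6%, with 588 higher and 825 lower). For 1109 of these the 95% interval of the direct difference lay within 1.5-fold, which bounds how far the media can differ there. Over all 14725 tested genes, 6783 had such an interval. Upper quartile scaling turned the split of the common class to 802 higher and 696 lower and that of −C alone to 986 and 1133. A shared direction with a called difference in size was found in 447 genes with the larger change in −C (3.04%) and 212 with the larger change in −N (1.44%). In 479 genes (3.25%) the media moved expression in opposite directions from control, with 281 higher in −N and lower in −C and 198 the reverse. A further 999 genes (6.78%) were called between the media but in neither against control. Of the 381 genes over 4-fold between the media, 152 belonged to −C alone, 72 to −N alone and 106 to the opposite class. With the letter term, the count of −N alone was 620 and that of −C alone 1512.

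**Figure D1:**
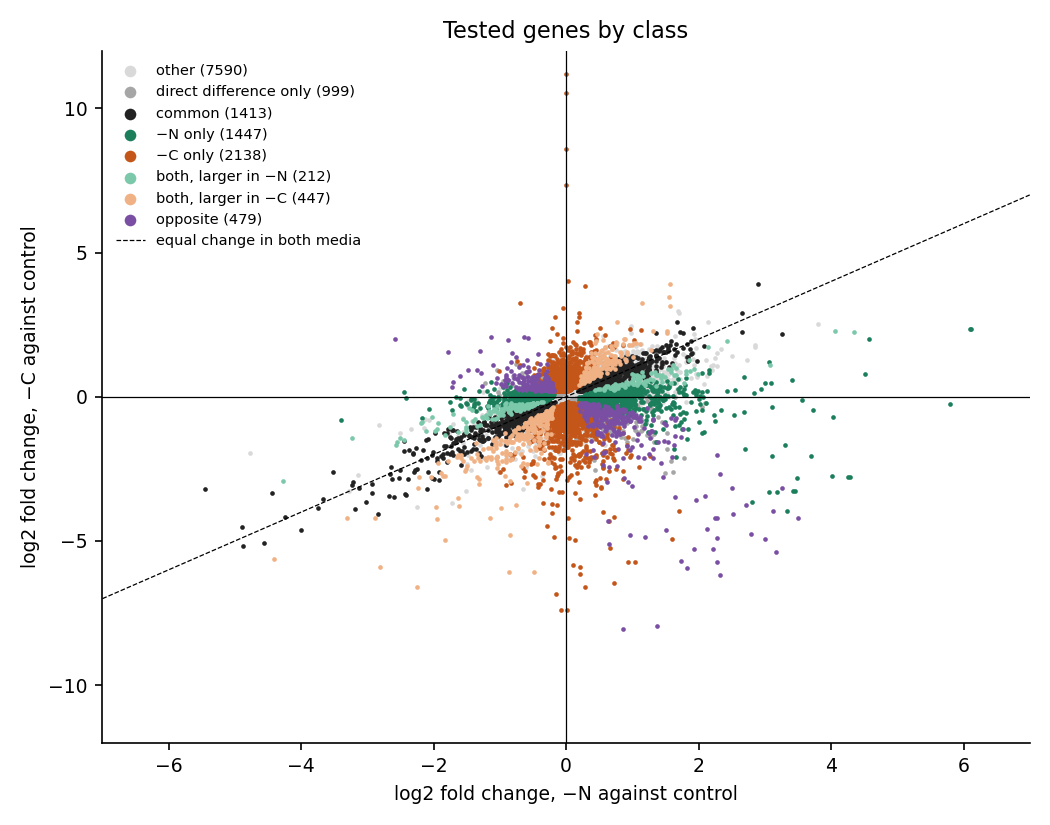
Each point is a tested gene, with its log2 fold change in −N against control on the x axis and in −C against control on the y axis, coloured by class with the number of genes in brackets. The common genes lie along the dashed line of equal change, the −C only genes along the vertical axis and the −N only genes along the horizontal axis, and the opposite class holds 479 genes.

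Several genes of nitrogen uptake were more highly expressed under low glucose than without ammonium. Of 7 ammonium transporter genes, 0 were higher in −N and 4 were higher in −C (57.1% called, against 38.9% of all tested genes). The median log2 difference (−N minus −C, as for all direct differences below) was -0.91 against 0 over all tested genes. LbAMT1.1a (JGI-188643), an ammonium importer, had 452, 492 and 472 CPM in −N, 1280, 1372 and 1441 CPM in −C and 890, 938 and 1108 CPM in the control libraries. All −N libraries were below and all −C libraries above every control library, with a direct log2 difference of -1.53 ± 0.10 (SE, n = 3 per medium; adjusted p = 9.72e-11). LbAMT1.2 (JGI-190906), a second importer of this family, stood at 555, 585 and 580 CPM in −N and at 817, 807 and 957 CPM in −C. It was above the control libraries (348, 354 and 423 CPM) in both media, and more so in −C (-0.59 ± 0.10, adjusted p = 0.000122).

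The other 5 ammonium transporters were read at lower levels. LbAMT1.1b (JGI-255304) had a mean of 2.08 CPM in −N, 3.88 CPM in −C and 3.99 CPM in control, and was lower in −N alone (direct difference -0.91 ± 0.20, adjusted p = 0.000928, and 0.0971 when thinned to equal depth). LbAMT2.3c (JGI-313221), listed as an Rh-like ammonium transporter, was lower than control in both media, at 1.88 CPM in −N and 3.52 CPM in −C against 8.06 CPM. Its direct difference of -0.91 ± 0.33 (adjusted p = 0.0321) was no longer called when −N replicate 1 or 3 or −C replicate 1 or 3 was left out (adjusted p of 0.0845 to 0.106), under upper quartile scaling (0.0607), when thinned to equal depth (0.0912) or with the letter term (0.121), while the difference itself stayed between -0.83 and -0.97 in these settings. LbAMT2.1 (JGI-300932) had 25.5, 25.7 and 26.9 CPM on average in control, −N and −C and was called in no comparison. LbAMT2.2 (JGI-331747) missed the threshold between the media (-0.95 ± 0.43, adjusted p = 0.0859, but 7.69e-05 in a fit of the 6 libraries alone), and JGI-484007, with a mean under 2 CPM in each medium, was lower than control in both.

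Of 4 genes with an annotation for nitrate transport, nitrate reductase or nitrite reductase activity, 3 moved in opposite directions from control. Of all tested genes, 3.25% did so. LbNrt (JGI-254042), the nitrate transporter, had 30.3, 32.4 and 26.9 CPM in −N and 284, 285 and 255 CPM in −C, on either side of 60.9, 70.9 and 63.5 CPM in control. The direct log2 difference was -3.21 ± 0.14 (adjusted p = 2.51e-13). JGI-254066, which carries the gene ontology term for nitrate reductase and is listed as a cytochrome b5 reductase, ran beside it with 25.9, 22.2 and 26.7 CPM in −N and 254, 250 and 254 CPM in −C (-3.34 ± 0.17, adjusted p = 2.64e-12). JGI-291348, which carries the term for nitrite reductase and was chosen after its values were seen, had means of 79.8 CPM in −N, 375 CPM in −C and 261 CPM in control (-2.23 ± 0.20, adjusted p = 1.31e-08). Nitrate and nitrite reductase together reduce nitrate to ammonium. These 3 genes were lower than control without ammonium salts and higher than control on low glucose. On surplus ammonium (+N) their means were 7.75, 5.37 and 29.4 CPM. On surplus glucose (+C) they were 32.9, 40.6 and 114 CPM, and on surplus phosphate (+P) 29.7, 36.0 and 58.9 CPM. Means below control were thus not particular to −N. The fourth gene, JGI-627887, which also carries the term for nitrate reductase and was named after its values were seen, stood at 97.1 CPM in −N, 93.0 CPM in −C and 113 CPM in control, with no call between the media (0.06 ± 0.08, adjusted p = 0.599).

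Amino acid permeases, which carry amino acids across the plasma membrane, were split, with 6 of 17 higher in −N and 8 higher in −C (median -0.15). Together 82.4% of them were called, against 38.9% of all tested genes. The permease with the highest level in −C, JGI-188015, had 113, 111 and 107 CPM in −N, 732, 723 and 699 CPM in −C and 174, 170 and 170 CPM in control. Its 9 values fell in 3 separate groups, and the direct difference was -2.70 ± 0.07 (adjusted p = 3.1e-17). JGI-254728 followed the same order at a low level (2.36, 10.4 and 3.97 CPM in −N, −C and control), and JGI-191715 was higher in −C alone (163 CPM against 72.0 in −N and 68.4 in control; -1.18 ± 0.16). Among the permeases higher in −N, JGI-182249 had 182 CPM in −N, 114 CPM in −C and 86.3 CPM in control (0.68, adjusted p = 3.25e-05, and 0.0603 with the letter term), and JGI-308597 was lower than control in both media, at 25.2 CPM in −N and 15.1 CPM in −C against 52.4 CPM. These last 2 genes were chosen after their values were seen.

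Of 7 peptide transporter genes, 1 was higher in −N and 4 higher in −C (71.4% called, against 38.9% of all tested genes). The oligopeptide transporter JGI-190652 had 57.7, 55.2 and 57.5 CPM in −N and 208, 215 and 214 CPM in −C, against 21.1, 18 and 18.7 CPM in control. Both media raised it, −C more than −N (-1.90 ± 0.14, adjusted p = 5.42e-10), and JGI-250173 of the same family rose in the same order, from 82.1 CPM in control to 107 and 236 CPM. The reverse was seen for JGI-301981, a transporter of the major facilitator superfamily in the peptide list, with 55.8, 56.8 and 56.1 CPM in −N, 14.7, 14.6 and 15.2 CPM in −C and 15, 12.1 and 11.2 CPM in control. This gene rose in −N and not in −C (1.92 ± 0.16, adjusted p = 4.26e-09). Its means on +C and +P were also above control, at 21.2 and 28.3 CPM.

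Inside the cell, 8 of 9 genes of glutamine, glutamate and asparagine metabolism were higher in −C and 0 higher in −N (median -0.53). Together 88.9% of the list were called, against 38.9% of all tested genes. Glutamine synthetase (JGI-183088), which joins ammonium to glutamate, had 1347, 1420 and 1357 CPM in −N, 2523, 2498 and 2912 CPM in −C and 2067, 2103 and 2608 CPM in control. It was lower than control in −N and not in −C, with a direct difference of -0.94 ± 0.10 (adjusted p = 2.78e-07). Its means on +N, +C and +P were also below control, at 942, 1649 and 1395 CPM. A glutamate dehydrogenase gene (JGI-292653), which joins ammonium to 2-oxoglutarate or releases it, fell in both media, to 151, 159 and 146 CPM in −N and 298, 314 and 306 CPM in −C from 462, 598 and 674 CPM in control. Its direct difference (-1.01 ± 0.24, adjusted p = 0.0022) was not called with the letter term (adjusted p = 0.151). The gene had means of 37.5, 222 and 154 CPM on +N, +C and +P. A second gene with the term for glutamate dehydrogenase activity, JGI-309733, moved in opposite directions from control at a lower level. Its means were 8.64 CPM in −N, 19.3 CPM in −C and 11.5 CPM in control (-1.16 ± 0.14, adjusted p = 1.28e-06). On +N, +C and +P they were 30.0, 10.7 and 7.90 CPM.

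The list for urea, purine, amide and nitrate use had 3 of 16 tested genes higher in −N and 8 higher in −C. Its share called was 68.8%, against 38.9% of all tested genes. All 3 genes higher in −N carried the term for adenosine deaminase, an enzyme of purine metabolism. JGI-298374 had 5.52, 4.70 and 3.45 CPM in −N and 0.454, 0.217 and 0.236 CPM in −C, against 10, 7.14 and 7.29 CPM in control. It was lower than control in both media and by far more on low glucose (direct difference 3.94 ± 0.38, adjusted p = 4.01e-08). JGI-620244 and JGI-710177 had 34.3 and 22 CPM in −N and 4.32 and 7.29 CPM in −C (3.00 and 1.60). On the −C side, JGI-245695, a xanthine and uracil permease, had 110 CPM in −C and 51.5 CPM in −N (-1.09, adjusted p = 6.32e-09), and JGI-696602, annotated as an allantoicase, had 55.9 and 38.8 CPM (-0.53, adjusted p = 0.000447, and 0.0888 with the letter term). The last 4 genes were named after their values were seen.

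**Figure D2:**
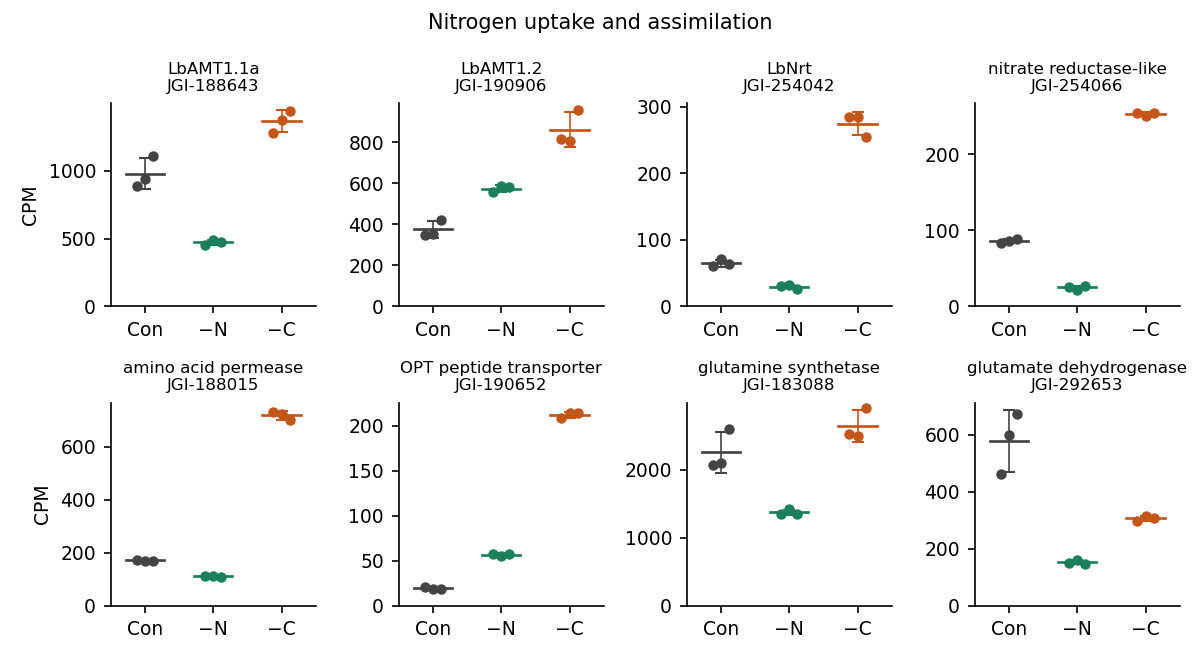
CPM of 8 genes of nitrogen uptake and assimilation in the control (Con), −N and −C media, with a point per library, a line at the mean and bars of 1 SD (n = 3). LbAMT1.1a, LbNrt, the nitrate reductase-like gene and the amino acid permease lie below control in −N and above it in −C, whereas LbAMT1.2 and the oligopeptide transporter lie above control in both media.

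The genes named after the nitrogen and carbon regulators moved little. LbAreA (JGI-488576) had 85.1, 79.2 and 92.7 CPM in −N, 71.5, 68.9 and 78.0 CPM in −C and 101, 86.6 and 106 CPM in control. It was lower than control in −C (-0.43, adjusted p = 0.00254), while the direct difference of 0.24 ± 0.10 missed the threshold (adjusted p = 0.0784). LbCreA (JGI-443509) fell in both media, to 76.7, 77.3 and 82.2 CPM in −N and 65.0, 65.2 and 72.4 CPM in −C from 96.6, 92.6 and 113 CPM, with no call between them (0.22 ± 0.09, adjusted p = 0.068). Both genes were called higher in −N in some other settings, among them upper quartile scaling (adjusted p of 0.0124 and 0.0116) and a fit of the 6 libraries alone (0.00468 and 0.00425). These are transcript levels and say nothing of the activity of the proteins.

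Of 9 sugar transporter genes, 1 was higher in −N and 1 higher in −C (22.2% called, against 38.9% of all tested genes). Against control, 3 were higher and 1 lower in −N and 2 higher and 1 lower in −C. Over all tested genes, 14.7% were higher and 17% lower in −N, and 18.2% and 19.4% in −C. LbMST1 (JGI-305352), a monosaccharide transporter, had 22.1, 20.9 and 18.7 CPM in −N, 70.4, 66.7 and 67.9 CPM in −C and 20.4, 19.5 and 21.9 CPM in control. The −N libraries overlapped the control libraries and the −C libraries stood above both (-1.73 ± 0.09, adjusted p = 2.58e-12). The gene higher in −N was JGI-314210, at 1.51 CPM in −N and 0.255 CPM in −C (2.58). A hexokinase gene (JGI-312018), of the enzyme that traps glucose in the cell, was higher in −C alone, with 248, 256 and 286 CPM against 139, 145 and 147 CPM in −N (-0.87 ± 0.10, adjusted p = 6.15e-07).

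Of 12 glycolysis and gluconeogenesis genes, 7 were lower and 1 higher than control in −N and 8 lower and 3 higher in −C. Over all tested genes, 17% were lower and 14.7% higher in −N, and 19.4% and 18.2% in −C. The medians of the list were -0.35 and -0.39 against 0.02 and 0.01 over all tested genes. Enolase (JGI-181287), a late step of glycolysis, had 953, 1020 and 992 CPM in −N and 986, 1022 and 965 CPM in −C, below 1853, 1961 and 2308 CPM in control. The media overlapped and the direct difference was 0.00 ± 0.10 (adjusted p = 0.978). JGI-295504, a glyceraldehyde 3-phosphate dehydrogenase gene, fell from 1601 CPM to 650 CPM in −N and 809 CPM in −C, with a direct difference of -0.32 (adjusted p = 0.0294) that was not called without −N replicate 1 (0.142) or 3 (0.0515), without −C replicate 3 (0.19) or with the letter term (0.359). A second gene annotated as glyceraldehyde 3-phosphate dehydrogenase, JGI-184409, rose in both media instead, from 30.7 CPM to 68.3 CPM in −N and 61.4 CPM in −C (adjusted p = 1.21e-08 and 3.13e-08). It was not called between the media (0.15, adjusted p = 0.204), but was with the letter term (0.4, 0.0289), with 9 or 6 libraries in the fit and, narrowly, under upper quartile scaling (0.0497). Of 14 citrate and glyoxylate cycle genes, 7 were lower than control in each medium, beside 17% of all tested genes in −N and 19.4% in −C. Aconitase (JGI-441719) had 144, 135 and 144 CPM in −N and 151, 138 and 164 CPM in −C against 399, 427 and 525 CPM, and did not differ detectably between the media (-0.10 ± 0.16, adjusted p = 0.676). Enolase, both glyceraldehyde 3-phosphate dehydrogenase genes and aconitase were named after their values were seen. Shifts in the same direction appeared in surplus media too. On +N, +C and +P the means were 1206, 1379 and 1371 CPM for enolase and 102, 181 and 208 CPM for aconitase. JGI-184409 stood at 72.4 CPM on +C and 75.4 CPM on +P, but at 32.3 CPM on +N.

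Trehalose, glycogen and mannitol genes, which store and mobilise carbohydrate, had 0 of 10 higher in −N and 6 higher in −C (median -0.48). Their share called was 60%, against 38.9% of all tested genes. Against control, 4 were lower in −N and 4 higher in −C, beside 17% and 18.2% of all tested genes. JGI-306794, a glycosyltransferase of family GT20 with the term for trehalose synthesis, had 687, 669 and 701 CPM in −N, 2238, 2244 and 2391 CPM in −C and 873, 1137 and 1222 CPM in control. It was below control without ammonium and above control on low glucose (-1.74 ± 0.24, adjusted p = 5.94e-06). Its means without phosphate (−P) and on +N, +C and +P were 797, 734, 792 and 690 CPM. A second GT20 gene, JGI-318750, was lower than control in −N and not in −C. It had 648, 607 and 706 CPM in −N against 1063, 1082 and 1099 CPM in −C (-0.73 ± 0.12, adjusted p = 4.55e-05). On +N, +C and +P the means were 546, 814 and 732 CPM, against 986 CPM in control.

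In the list of the respiratory chain and ATP synthase, 2 of 32 genes were higher in −N and 8 higher in −C (31.2% called, against 38.9% of all tested genes). The counts were 4 and 5 under upper quartile scaling and 5 and 4 with the letter term, so that its direction depended on the setting. JGI-688984, with the term for NADH dehydrogenase activity, had 403, 423 and 409 CPM in −N, 1428, 1407 and 1673 CPM in −C and 304, 252 and 311 CPM in control (-1.87 ± 0.24, adjusted p = 2.42e-06). All −C libraries were above every other library of this comparison. Of the alcohol and aldehyde dehydrogenases, 5 of 10 were higher in −N and 2 higher in −C (70% called, against 38.9% of all). The zinc-binding alcohol dehydrogenase JGI-660224 had means of 43.1 CPM in −N, 6.56 CPM in −C and 21.6 CPM in control (2.72 ± 0.25, adjusted p = 1.61e-08), and the aldehyde dehydrogenase JGI-307566 had 4.27, 0.405 and 5.38 CPM (3.32 ± 0.36).

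Genes of fatty acid oxidation and the peroxisome had 6 of 21 higher in each medium (57.1% called, against 38.9% of all tested genes). Under upper quartile scaling 9 were higher in −N and 5 higher in −C. The 3 largest differences (JGI-305939, JGI-480959 and JGI-654676) were all on the −N side, with −N above and −C below control. The acyl-CoA oxidase or dehydrogenase JGI-654676, of the first step of fatty acid oxidation, had 76.1, 88.7 and 76.5 CPM in −N and 35.1, 37.9 and 39.2 CPM in −C (1.1 ± 0.17, adjusted p = 2.64e-05). Lipid synthesis had 2 of 22 higher in −N and 7 higher in −C (40.9% called, against 38.9% of all tested genes). JGI-187554, which RefSeq names ACC1, a name used for acetyl-CoA carboxylase, while its counterpart in Coprinopsis is described as nitroreductase-like, had 246, 233 and 276 CPM in −N and 474, 492 and 534 CPM in −C (-0.99 ± 0.16, adjusted p = 4.88e-05). FAS-2 (JGI-296983), of fatty acid synthase, had 324, 321 and 368 CPM in −N and 622, 601 and 706 CPM in −C (-0.93 ± 0.26, adjusted p = 0.00766, and 0.409 with the letter term). Against these, the fatty acid desaturase JGI-708196 rose from 10.6, 7.74 and 7.29 CPM in control to 137, 150 and 142 CPM in −N and to 43.3, 38.4 and 44.2 CPM in −C (1.77 ± 0.13, adjusted p = 6.12e-10).

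**Figure D3:**
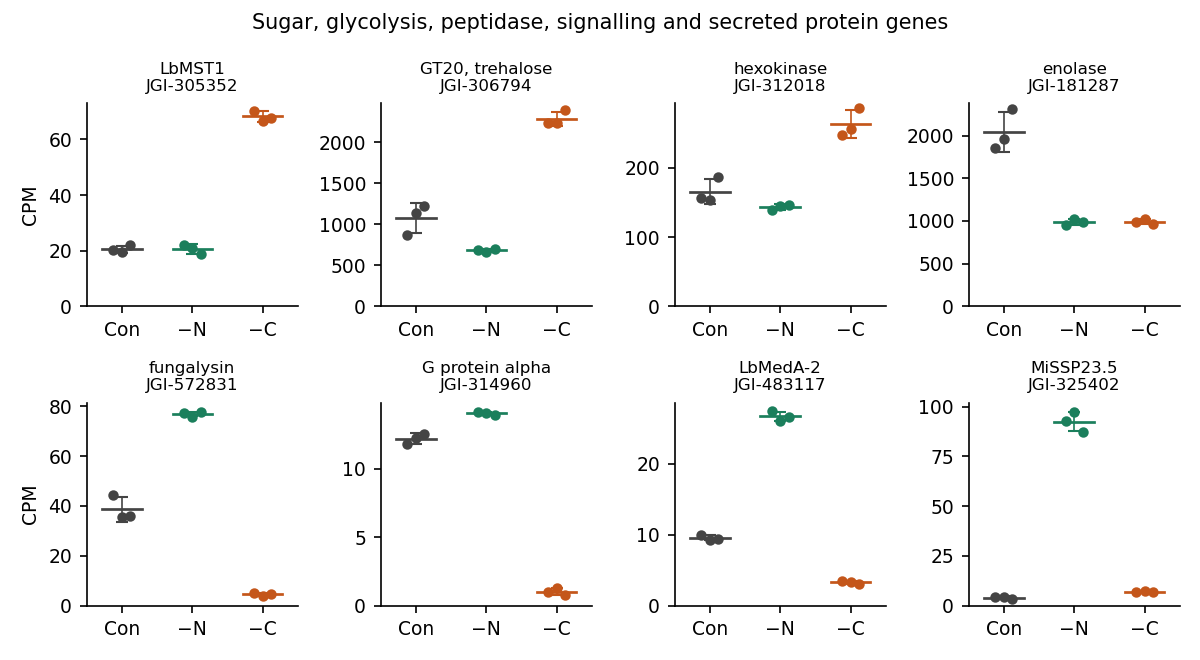
CPM of 8 genes of sugar use, peptide breakdown, signalling and secretion in the control (Con), −N and −C media, with a point per library, a line at the mean and bars of 1 SD (n = 3). LbMST1, hexokinase and the GT20 gene are highest in −C, enolase is at the same lowered level in both media, and the fungalysin, the G protein subunit and LbMedA-2 are lowest in −C.

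CAZymes, the enzymes that build and break polysaccharides, had 24 of 144 higher in −N and 40 higher in −C (44.4% called, against 38.9% of all tested genes). Under upper quartile scaling the counts were 32 and 37 and the median difference turned from -0.06 to 0.01. JGI-307596, of carbohydrate esterase family CE4, which removes acetyl groups from chitin and related polymers, had 6.12, 6.82 and 6.03 CPM in −N, 144, 145 and 161 CPM in −C and 42.4, 36.4 and 33.8 CPM in control. This was the largest difference of the list (-4.57 ± 0.29, adjusted p = 7.79e-11), and its mean on surplus ammonium was 369 CPM. The GH17 gene JGI-382749, of a glucanase family and chosen after its values were seen, rose to 354 CPM in −N and 90.4 CPM in −C from 41.8 CPM (1.97, adjusted p = 5.82e-10). In the list of chitinases and glucanases, 8 of 40 were higher in each medium (40% called). JGI-191848, a chitinase of family GH18, had 8.28, 9.32 and 7.11 CPM in −N and 3.4, 1.95 and 3.12 CPM in −C (1.56 ± 0.24), and the chitinase JGI-323928 was lower in −C alone (9.19 CPM against 25.9 CPM in −N and 30.9 CPM in control).

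Of 45 peptidases, 14 were higher in each medium (62.2% called, against 38.9% of all tested genes; 11 higher in −N and 6 higher in −C with the letter term), and the 3 over 4-fold were all higher in −N. The fungalysin JGI-572831, a metallopeptidase of a secreted family, had 77.2, 75.8 and 77.5 CPM in −N, 5.10, 3.93 and 4.63 CPM in −C and 44.5, 35.5 and 35.9 CPM in control. It was above control without ammonium and below control on low glucose (4.09 ± 0.20, adjusted p = 1.76e-12). The subtilisin-type peptidase JGI-306792 followed the same order, with 52.7, 52.6 and 60.3 CPM, 10.8, 12.7 and 10.8 CPM and 47.2, 40.1 and 47.3 CPM (2.27 ± 0.10, adjusted p = 6.61e-13). JGI-635298, a cysteine-type endopeptidase named after its values were seen, was lower than control in −C and not in −N. It had 155 CPM in −C against 778 CPM in −N and 746 CPM in control, and its mean on surplus ammonium was also low, at 151 CPM.

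Genes of ubiquitin and the proteasome had 2 of 36 higher in −N and 12 higher in −C (38.9% called, the share of all tested genes). The counts were 5 and 9 under upper quartile scaling. Against control, 12 were higher in −C and 4 higher in −N, beside 18.2% and 14.7% of all tested genes. The proteasome core gene JGI-189495 had 113, 120 and 107 CPM in −N and 174, 179 and 180 CPM in −C against 113, 110 and 123 CPM in control. This was higher in −C alone (-0.65 ± 0.08, adjusted p = 5.46e-07), and so was JGI-182574 of the same complex (-0.56, adjusted p = 0.0025, and 0.142 with the letter term). A further 4 proteasome core genes, named after their values were seen (JGI-188567, JGI-189531, JGI-241730 and JGI-658007), were also higher in −C than in −N, with log2 differences of -0.51, -0.42, -0.27 and -0.33. Of these calls, those of JGI-241730 and JGI-658007 were lost when −N replicate 1 or 3 or −C replicate 2 or 3 was left out (adjusted p of 0.0684 to 0.151), and only that of JGI-188567 held with the letter term. Of 14 protease inhibitors, 1 was higher in −N and 3 higher in −C (28.6% called). The clitocypin JGI-318727, a cysteine protease inhibitor of mushrooms, rose in both media, to 9.18, 11.9 and 9.58 CPM in −N and to 36.8, 39.0 and 32.1 CPM in −C from 5.29, 6.54 and 6.08 CPM (-1.82 ± 0.16, adjusted p = 6.89e-09).

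Ribosomal protein genes, with 7 of 46 higher in each medium, and the 27 translation genes, with 3 higher in −N and 7 higher in −C, had 30.4% and 37% called, against 38.9% of all tested genes. Under upper quartile scaling the counts were 11 and 5 for ribosomal proteins and 5 and 5 for translation. A gene listed as a ribosomal protein of the large subunit, JGI-654096, stood apart with 13.0, 29.9 and 22.4 CPM in −N against 0.908, 0.938 and 0.567 CPM in −C and 1.92, 1.2 and 0.778 CPM in control (4.73 ± 0.51, adjusted p = 2.07e-07). Its lowest −N library was still above every −C and control library. In media outside the comparison, its means were 9.90 CPM on +C and 17.0 CPM on +P, so that the rise was not particular to −N. Aspartyl-tRNA synthetase (JGI-633378), which charges tRNA with aspartate, was below control in −N (266 CPM) and above it in −C (563 CPM against 384 CPM; -1.08 ± 0.11), whereas the tyrosyl-tRNA synthetase JGI-252456 was lowest in −C (44.5 CPM against 79.5 CPM in −N and 119 CPM in control).

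**Figure D4:**
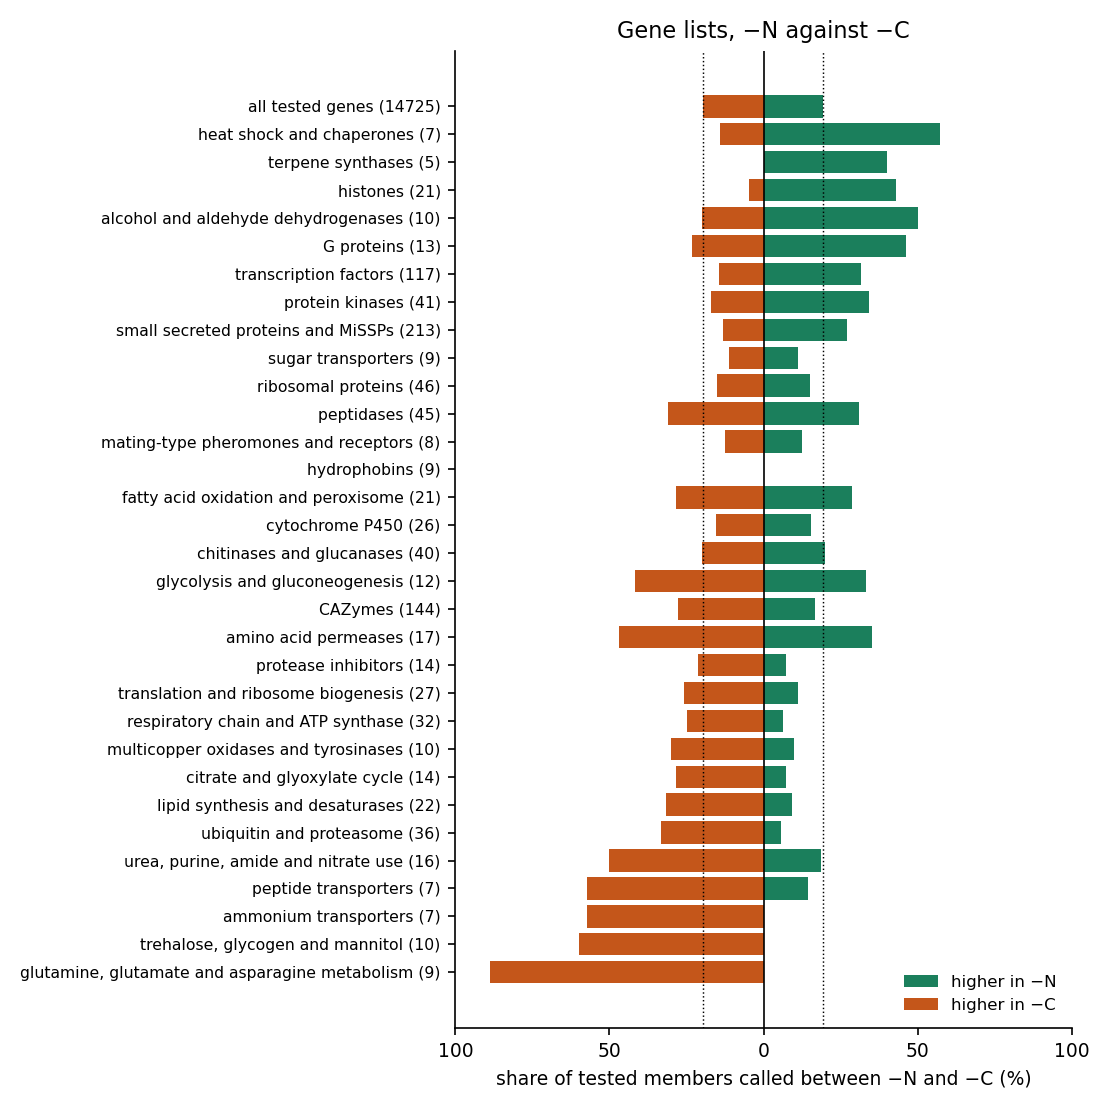
Share of the tested members of each gene list (number tested in brackets) called higher in −N (right) or higher in −C (left), with all 14725 tested genes in the top row and its shares as dotted lines. Glutamine, glutamate and asparagine metabolism, trehalose and ammonium transporters have calls on the −C side only, and histones, G proteins and transcription factors have most of theirs on the −N side.

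Of 117 transcription factor genes, 37 were higher in −N and 17 higher in −C (46.2% called, against 38.9% of all tested genes). Against control, 46 were lower and 14 higher in −C, with 32 lower and 17 higher in −N. Over all tested genes, 19.4% were lower and 18.2% higher in −C, and 17% and 14.7% in −N. LbMedA-2 (JGI-483117), named after the Medusa regulator of conidium formation in Aspergillus, had 27.4, 26.1 and 26.6 CPM in −N, 3.46, 3.39 and 3.07 CPM in −C and 10, 9.28 and 9.48 CPM in control. It moved in opposite directions from control (3.01 ± 0.16, adjusted p = 3.65e-12). LbAbaA (JGI-298274), named after another Aspergillus regulator of conidium formation, had 14.2, 13.3 and 12.3 CPM in −N and 14.4, 12.4 and 12.5 CPM in control but 2.27, 1.37 and 1.79 CPM in −C (2.90 ± 0.20, adjusted p = 1.89e-10). The bZIP factor JGI-395214 had 41.3, 41.2 and 39.1 CPM in −N and 6.24, 6.64 and 4.06 CPM in −C (2.83 ± 0.41, adjusted p = 1.06e-05). Its control libraries were spread, with 46.4 CPM in the library that carries the letter i and 14.3 and 12.5 CPM in the others.

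G proteins pass signals from membrane receptors into the cell. Of 13 genes of the list, 6 were higher in −N and 3 higher in −C (69.2% called, against 38.9% of all tested genes). In −C, 7 were lower than control, beside 19.4% of all tested genes. The alpha subunit JGI-314960 had 14.2, 14.1 and 14.0 CPM in −N, 0.964, 1.3 and 0.803 CPM in −C and 11.8, 12.3 and 12.6 CPM in control (3.74 ± 0.19, adjusted p = 2.4e-12). Only the −C libraries left the control level, as they did for the alpha subunits JGI-335466 (1.00 CPM against 5.77 CPM in −N; 2.53 ± 0.23) and JGI-330434 (3.80 CPM against 16.1 CPM; 2.08 ± 0.14). Protein kinases had 14 of 41 higher in −N and 7 higher in −C (51.2% called, against 38.9% of all tested genes). The serine/threonine kinase JGI-584449 had 24.4, 26.8 and 25.6 CPM in −N, 0.908, 0.397 and 0.331 CPM in −C and 39.3, 33.9 and 33.5 CPM in control (5.61 ± 0.28, adjusted p = 2.58e-12). The kinases JGI-335202 and JGI-483680 were likewise lower than control in both media and lowest in −C, at 3.03 and 0.822 CPM against 25.0 and 6.18 CPM in −N (3.03 ± 0.14 and 2.87 ± 0.29).

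Histones package DNA, and much of their transcription is tied to DNA replication in dividing cells. Of 21 genes, 8 were lower than control in −N and 14 lower in −C, beside 17% and 19.4% of all tested genes. In −N and −C alike, 0 were higher than control, beside 14.7% and 18.2% of all. Between the media, 9 were higher in −N and 1 higher in −C (47.6% called, against 38.9% of all tested genes). HFO16210 (JGI-306722), the most expressed, had 418, 485 and 422 CPM in −N, 160, 183 and 192 CPM in −C and 358, 342 and 335 CPM in control. It fell in −C alone (1.31 ± 0.16, adjusted p = 1.22e-06). HTB16202 (JGI-185040) fell in both, to 108, 120 and 113 CPM in −N and 67.5, 67.0 and 70.1 CPM in −C from 209, 198 and 203 CPM (0.74 ± 0.09, adjusted p = 1.62e-06). HTR16202 (JGI-251730), a histone H3 gene, followed at 1.99 and 1.05 CPM against 9.42 CPM. Its direct call was lost without −N replicate 1 (adjusted p = 0.144) or −C replicate 2 (0.0615), and with the letter term (0.0645), where the differences were 0.66, 0.88 and 1.05 against 0.93.

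Of 7 heat shock and chaperone genes, 4 were higher in −N and 1 higher in −C (71.4% called, against 38.9% of all tested genes). HSP20 (JGI-384818), a small heat shock protein, had 144, 142 and 140 CPM in −N, 35.6, 35.3 and 35.8 CPM in −C and 97.6, 75.5 and 79.1 CPM in control (2.00 ± 0.13, adjusted p = 6.16e-11). An HSP70 gene (JGI-656443) fell in both media, to 1996, 2084 and 2224 CPM in −N and 967, 986 and 1076 CPM in −C from 2738, 2998 and 3559 CPM (1.06 ± 0.12, adjusted p = 2.64e-07). This list moved with the medium, and its part in the other differences was not tested.

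Among 213 tested genes of small secreted proteins (SSPs), which include the mycorrhiza-induced MiSSPs that L. bicolor makes in symbiosis, 58 were higher in −N and 28 higher in −C. Together 40.4% were called, against 38.9% of all tested genes. Over 4-fold the counts were 15 and 2, beside 342 and 39 over all tested genes. MiSSP23.5 (JGI-325402) had 92.9, 97.2 and 87.4 CPM in −N, 6.98, 7.22 and 6.85 CPM in −C and 4.36, 4.40 and 3.32 CPM in control (3.72 ± 0.32, adjusted p = 7.62e-09). A second MiSSP gene, JGI-307960, was read at a low level outside −N, with 23.4, 15.9 and 19.3 CPM in −N against at most 0.567 CPM in a −C library and 0.734 CPM in a control library, and means of 1.15 CPM on +C and 1.06 CPM on +P (6.05 ± 0.59, adjusted p = 4.34e-08). Both were higher than control in −N alone. Other SSP genes fell in −C, such as JGI-689089, with 5.34, 7.28 and 5.00 CPM in −N and 0.284, 0.289 and 0.142 CPM in −C (4.56 ± 0.34), and JGI-699309, which was above control in −N (44.7 CPM against 23.3 CPM) and below it in −C (2.91 CPM; 3.90 ± 0.30).

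Of 5 terpene synthases, 2 were higher in −N and 0 higher in −C (40% called, against 38.9% of all tested genes), and 0 were called with the letter term. The larger difference was that of JGI-394925, with 18.8, 22.5 and 19.3 CPM in −N and 4.37, 4.55 and 4.58 CPM in −C (2.16 ± 0.46, adjusted p = 0.00075, and 0.118 with the letter term). Its control libraries were again spread, with 57.8 CPM in the one that carries the letter and 26.5 and 28.5 CPM in the others. Cytochrome P450 genes had 4 of 26 higher in each medium (30.8% called) and hydrophobins 0 of 9 called. Multicopper oxidases and tyrosinases had 1 of 10 higher in −N and 3 higher in −C (40% called), but 3 and 2 under upper quartile scaling. Lbrcb3 (JGI-192000), in the list of mating-type pheromones and receptors, rose in both media, to 8.34, 7.2 and 8.14 CPM in −N and 32.7, 32.8 and 37.4 CPM in −C from 1.92, 4.67 and 4.24 CPM. The −C libraries were above all −N libraries (-2.11 ± 0.31, adjusted p = 1.39e-05, and 0.0727 with the letter term).

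Outside the lists, a glutathione transferase and a potassium transporter rose strongly on low glucose alone, and both were chosen after their values were seen. JGI-438154, with the term for glutathione transferase activity, a detoxifying function, had 1968, 1950 and 1790 CPM in −C against 223, 246 and 186 CPM in −N and 237, 206 and 233 CPM in control (-3.12 ± 0.24, adjusted p = 1.24e-09). JGI-482899, a potassium uptake permease of the KUP family, had 1152, 1108 and 1083 CPM in −C against 151, 147 and 141 CPM in −N and 163, 161 and 170 CPM in control (-2.93 ± 0.14, adjusted p = 1.06e-12). In both genes the −N and control libraries lay close together and all −C libraries were apart.

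Large changes common to both media were mostly falls. Of the 1413 common genes, 41 were over 4-fold from control in both media, 37 of them lower and 4 higher. Over 2-fold the split was milder, with 134 of 218 lower. The interval of the direct difference lay within 1.5-fold for only 4 of the 41 genes. An equal change in both media was therefore not shown for most of them. JGI-691026, with no annotated function, fell from 112, 93.3 and 91.1 CPM in control to 4.14, 2.80 and 3.04 CPM in −N and 2.78, 2.09 and 3.49 CPM in −C. The protein kinase JGI-567679 fell from 56.2, 48.4 and 53.1 CPM to 2.10, 2.20 and 2.32 CPM in −N and 1.42, 1.73 and 1.51 CPM in −C. Their direct differences were 0.28 ± 0.44 (adjusted p = 0.654) and 0.49 ± 0.37 (adjusted p = 0.319), and neither was called, although JGI-567679 was in a fit of the 9 control, −N and −C libraries (0.51, adjusted p = 0.0236). JGI-691008, JGI-670757 and JGI-670696, with no annotated function, fell from means of 32.1, 34.7 and 58.5 CPM to between 1.1 and 3.63 CPM in −N and between 1.40 and 2.36 CPM in −C. JGI-670696 was called higher in −N in a fit of 9 libraries (0.65, adjusted p = 0.00241) or 6 libraries (0.64, 0.0146) and by DESeq2 (0.63, 0.0445), against 0.62 and 0.105 here.

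Among the common genes that rose, the aldo/keto reductase JGI-441000 went from 7.68, 6.01 and 7.00 CPM in control to 23.1, 22.3 and 24.9 CPM in −N and 30.5, 33.8 and 31.8 CPM in −C. It was not called between the media (-0.45 ± 0.22, adjusted p = 0.118), but was in a fit of the 6 libraries alone (0.000162). JGI-321372, with no annotated function, rose from 1.47 CPM to 9.31 CPM in −N and 11 CPM in −C. In both genes every library of either medium was above every control library. The remaining 3 of the 5 common genes with the largest rise, JGI-583389, JGI-601918 and JGI-673972, had means under 10 CPM in each medium. In the media with a surplus, set against −P, which shares no library with the comparisons above, 42.1% of the 825 common lower genes were higher on surplus ammonium, whereas 16% of all tested genes were higher and 17.7% lower. On surplus glucose, 5.09% of the common lower genes were higher and 15.5% lower, against 4.69% and 5.66% of all.

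The study itself described 56 genes as low in −C and 19 as low in both media. As these were chosen on the same libraries, their counts are a description only. Of the 56 genes, 52 were higher in −N than in −C and 0 the reverse, yet 26 of them were also lower than control in −N. Of the 19 genes, all were lower than control in both media, and 4 were higher in −N and 2 higher in −C in the direct comparison.

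Some genes were read in all media but low glucose, or in low glucose alone. With a limit of 3 reads in each library of a medium and at least 5 reads in every other library of the series, 16 genes were near 0 in −C alone, against 1 each in −N, −P and +N and 0 in the control medium, +C and +P. In 4 of the 16, all −C libraries held 0 reads. JGI-330474, annotated as L-aspartase-like, had 77, 67 and 86 reads in −N, 0 in each −C library and 16 to 86 reads over the 17 libraries outside −C, and was at least 33.6-fold higher in −N than the floor of 3 reads per −C library. JGI-334206, with no annotated function, had 51, 40 and 88 reads in −N and 0 in −C, at least 25.3-fold higher. JGI-705170, the most read of the 16, had 81 to 360 reads in the other libraries and 3, 0 and 1 reads in −C. Of those with an annotation, JGI-452188 has ankyrin repeats and a NACHT domain, and had 74 to 105 reads in −N and 2 reads in each −C library.

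In the other direction, 4 genes held at least 10 reads in each −C library and at most 3 in any other library of the series, against 2 each in −N and +N and 0 in the other media. JGI-483976, listed as a C-type lectin, a carbohydrate-binding protein, had 17.9, 16.8 and 18 CPM in −C and 0 reads in each −N and control library. It was at least 93.7-fold higher in −C than the floor. JGI-483977, listed as a leucine-rich acidic nuclear protein, and JGI-647526, listed as related to sortilin, a sorting receptor, were at least 58.1-fold and 15.4-fold higher. The fourth, JGI-445975, has no annotated function and held 21, 36 and 23 reads in −C. With the letter term, none of the 4 was called (adjusted p = 1), although their fitted differences did not move (-11.21, -10.52, -8.60 and -7.34), and the control libraries without the letter also held 0 reads. All −N libraries, which carry the letter, held 0 reads of them.

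**Figure D5:**
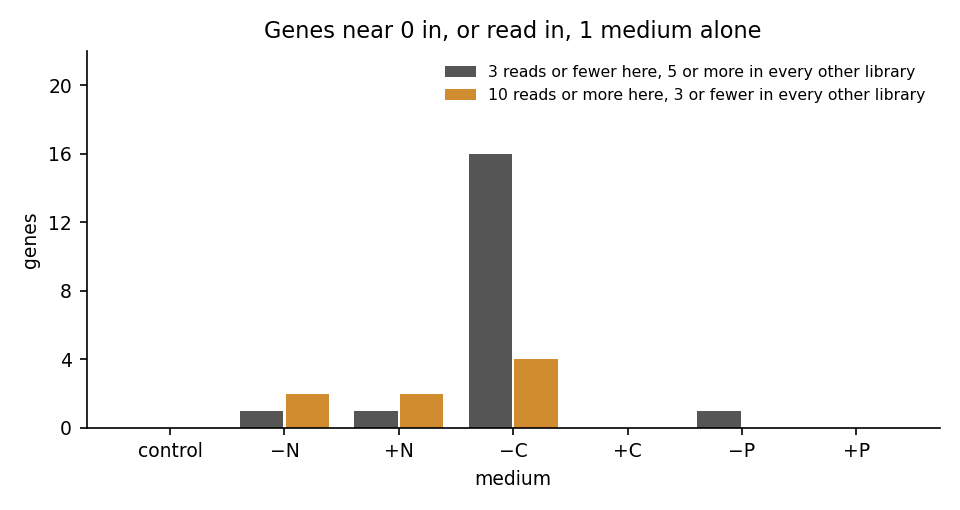
Number of genes per medium with 3 reads or fewer in each of its libraries and at least 5 in every other library of the series (grey), and with at least 10 reads in each of its libraries and 3 or fewer in every other library (orange). −C has 16 and 4 genes, and no other medium has more than 1 and 2.

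The counts of several lists were lower with the letter term in the fit. Over all tested genes they were 1524 higher in −N and 1399 higher in −C, against 2834 and 2888 without it. No gene of glutamine metabolism, trehalose metabolism or ammonium transport was higher in −N, and 4, 5 and 3 were higher in −C. For transcription factors the counts were 21 higher in −N and 8 higher in −C, for histones 4 and 0, for the proteasome list 1 and 5, for CAZymes 16 and 29, for ribosomal proteins 1 and 6, and for small secreted proteins 41 and 19.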

How the data were processed

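Total RNA of agar-grown mycelium was sequenced from libraries of polyadenylated RNA made with a stranded kit. Per the study's methods, the authors trimmed the reads, used CLC Genomics Workbench to align them to JGI's v2 transcript set, and deposited raw read counts per gene model, which were used here, and RPKM values, which were not used. Whether the counts are of unique or all mapped reads, and whether strand was used, is not given in the sources used here, so that counts of near-identical copies, overlapping gene models and antisense neighbours are uncertain. Every file covered 23130 gene models, each row with its identifier.

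Groups came from the labels (control, −N, +N, −C, +C and −P, 3 libraries each, and +P, 2). Differential expression was tested with edgeR 4.0.16 in R 4.3.3 (quasi-likelihood F-test, TMM, default expression filter by medium, Benjamini-Hochberg adjustment over all 14725 genes kept), with a mean per medium, all 20 libraries in a single fit and no covariate. SEs were obtained from the F statistic. The common biological coefficient of variation was 10.6%. Chi-square per degree of freedom between libraries of a medium lay between 2.22 and 12.6, so that none was counted as a duplicate. Libraries of the same replicate number had correlations of deviations of 0.0609, 0.0182 and 0.0955, against -0.0931 to 0.0448 for unlike numbers. This shows at most a weak pairing, and none was used. The fit was tested on simulated data. With at most 3 reads per library in a group the fold change is a lower bound against that floor, which covers counting error only.

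Identifiers are JGI protein numbers. Of 23130, 6580 shared their number with a RefSeq locus tag (assembly V1.0) and 3667 had a symbol or annotation from RefSeq or the study's tables; no coordinates are given. Of the tested genes 21.4% had a function. Lists were made by keyword from these annotations; no gene matched autophagy. Most named genes were called, held 10 reads or more in all 3 libraries of the higher medium and had no overlap between the media. They were the 3 largest differences in each direction, up to 4 annotated genes per class and direction, and up to 3 per list. Common genes, not called between the media, gave up to 5 per direction, with 10 reads or more in each library on the higher side. All ammonium transporters and the AreA and CreA genes were named whatever their values. Others are marked as chosen after seeing their values. The members and lists were chosen with earlier results of these data known. Alternatives were upper quartile and RLE scaling, other expression filters, DESeq2 1.42.0, fewer libraries in the fit, thinning to the smallest library, the replicate number as a block, a term for the letter i, baselines sharing no library, the 4-fold limit tested within the model, and leaving out each library; list counts under other scalings and with the letter term were added after seeing the data.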

Additional observations from a re-analysis of the deposited data

How the results depend on the processing

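The count of genes called between −N and −C kept within 1.5 times its value of 5722 under every alternative run except the term for the letter i, which gave 2923 (1524 higher in −N and 1399 higher in −C); with that term the −N only class held 620 genes (304 higher and 316 lower). The count over 4-fold, 381, was 615 without an expression filter (571 higher in −N), 151 with at least 10 reads in each −N, −C and control library (119 higher in −N), and 119 when the limit was tested within the model (103 higher in −N). Upper quartile scaling left the counts but moved the split, to 924 higher and 523 lower for −N only, 986 and 1133 for −C only, and 802 and 696 for the common class; RLE scaling gave 2878 and 2852 for all calls. Leaving out each −N or −C library in turn gave 4704 to 4924 calls and 358 to 392 over 4-fold. Over all libraries left out, control included, the −N only class held 1061 to 1412 genes, the −C only class 1741 to 2236 and the common class 1098 to 1377. Fitting only the 6 libraries gave 7296 calls and DESeq2 5681, with 1837 of 18942 adjusted p-values not given. With the replicate number as a block, for which the correlations show at most a weak pairing, 5567 genes were called. Baselines that shared no library gave 1379, 1995 and 1076 genes in the 3 classes.

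For 150 genes (the 129 chosen by rule and others named after their values were seen), 2227 of 2367 checks kept direction and side of the threshold, 89 lost the call, 25 gained it and 26 changed sign, all 26 in genes not called between the media. JGI-583389 turned to 0.06 with upper quartile scaling, 0.01 with the stricter read filter and with 9 libraries in the fit, 0.04 when thinned, 0.01 and 0.02 without −N replicate 1 and 2, and its values without each library in turn ran from -0.10 to 0.13. JGI-300932 turned to 0.00 with upper quartile scaling. Enolase (JGI-181287) turned to 0.06 with upper quartile and 0.00 with RLE scaling, 0.02 with the stricter read filter and with 9 libraries, 0.01 with 6 libraries and when thinned, 0.1 with the letter term, and ran from -0.03 to 0.04 without each library in turn, and with the letter term aconitase (JGI-441719) turned to 0.1 and JGI-627887 to -0.12. JGI-673972 turned to -0.65 with the letter term and ran from -0.07 to 0.21 without each library in turn, and JGI-670757 turned to 0.2 and ran from -0.43 to 0.12. Depth limits genes under about 3 reads per library, 0.108 to 0.227 CPM in the 6 libraries.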
